A study of Mus musculus with 5 samples.

Results

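The let-7 family of microRNAs, miR-98 included, was followed in mouse tibialis anterior, a muscle of the lower leg, from injury through repair. Members were taken by name, as every let-7 assay plus miR-98, a family member under another name, and numbered 9 of the 217 miRNA assays measured. The muscles were uninjected, at baseline, or taken 1, 3, 4, 7 or 21 days after cardiotoxin. Cardiotoxin, a venom peptide that destroys myofibres and spares many of the stem cells between them, was given at 2.5 µM into the front of both lower legs (100 µl). All groups were C57BL/6J males aged 4 to 6 months, with no transgene or mutant allele named, and the labels state 4 mice per time point. Each miRNA was read by TaqMan RT-PCR as a threshold cycle (Ct), where a lower Ct means more template and 1 cycle is close to a doubling. The 4 Ct values of an assay and group were taken as the 4 mice, which the files do not state, so p-values may measure technical spread. The same 4 baseline values served every comparison.

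MicroRNAs guide Argonaute proteins to messenger RNAs that pair with their seed, the bases near the 5′ end, and lower the output of those messages. The let-7 family was found in the worm Caenorhabditis elegans as a timer of larval development, and in mammals its members accumulate as cells stop dividing and differentiate. Known targets include Hmga2, the Ras genes and Lin28a and Lin28b, whose RNA-binding proteins in turn block the maturation of let-7 precursors. In mice the family is made from several loci, some clustered with each other or with members of the miR-99/100 and miR-125 families.

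The sequences below show what the 9 members share and where they part, since every comparison here is between miRNAs that differ by a few bases. They are the 5′ arm products in RefSeq (GRCm38.p6), all 9 matched by name, and capitals mark the seed, bases 2 to 8.
let-7a: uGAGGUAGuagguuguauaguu
let-7b: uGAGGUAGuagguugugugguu
let-7c: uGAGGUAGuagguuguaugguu
let-7d: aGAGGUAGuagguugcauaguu
let-7e: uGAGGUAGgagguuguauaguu
let-7f: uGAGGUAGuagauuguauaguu
let-7g: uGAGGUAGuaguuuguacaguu
let-7i: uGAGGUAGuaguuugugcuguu
miR-98: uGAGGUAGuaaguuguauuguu
All 9 were 22 bases long and carried 1 seed. Counted from 1 at the 5′ end of let-7a, the other members differ from it at A19G for let-7c, U9G for let-7e and G12A for let-7f. Members with 2 differences were let-7b (A17G, A19G), let-7d (U1A, U16C), let-7g (G12U, U18C) and miR-98 (G11A, A19U), and let-7i had 4 (G12U, A17G, U18C, A19U). Among 1679 mature mouse names in RefSeq, 11 have this seed, the 9 members and 2 others, and none of the other 208 assays was among them, of which 178 could be matched to RefSeq. Assays of members 1 base apart may partly read each other's template, which was not tested here.

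The 8 let-7 assays were strong in every well, with Ct values between 17.2 and 23.67 and standard deviations within a group of 0.0978 to 0.566 cycles (median 0.265, n = 4). By mean baseline Ct the order was let-7e (17.8), let-7d (18.6), let-7i (18.8), let-7g (18.9), let-7c (19.5), let-7b (20.5), let-7a (21.6), let-7f (22.4) and miR-98 (30.5), an order of assays rather than of molecules, since assay efficiencies are unknown. Of the 216 Ct values of the family, 2 were at or over 35, the limit of detection used here, and both belonged to miR-98. The myofibre miRNAs marked the tissue, with 5 of 5 measured members detected at baseline at mean Ct 9.35 to 27.5. The 5 control RNAs did not hold together: MammU6 (U6) averaged 12.5 ± 0.792 cycles on day 1 and 14.8 ± 0.264 at baseline, while Y1 averaged 22.7 ± 0.725 on day 1 and 20.3 ± 0.579 at baseline (SD, n = 4 each). Levels are therefore given as minus Ct relative to the median miRNA, the median change over 205 miRNAs in the same well, on a log2 scale with the baseline mean at 0, and U6, marked as the endogenous control in the files, is set beside them. A change was called at a limma adjusted p under 0.05.

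Against baseline the family split on the median-miRNA scale. A split of the miRNAs as a whole is fixed in advance by that scale, which holds their median change near 0. Relative to U6 no member was called higher from day 1 to day 7, while relative to snoRNA202 4 were lower and 2 higher on day 3. let-7d, let-7e, let-7f and let-7g were lower from day 3 to day 7, with log2 changes between -1.48 and -0.92 relative to the median miRNA. Among all miRNAs tested, 41% to 42.3% were called lower on each of those days. The 4 members were called lower relative to U6 as well, while relative to Y1 let-7e, let-7f and let-7g stood above baseline on day 3. let-7b, let-7c and let-7i were not called lower on any of those days relative to the median miRNA. On day 21 all 3 were higher, as were 35.7% of all miRNAs: let-7c by 2.55-fold, let-7b by 2.05-fold and let-7i by 1.45-fold. Relative to U6, however, only let-7c passed on that day, and relative to snoRNA135 let-7b and let-7i were below baseline. let-7a was 2.39-fold lower on day 1 and not called later. The member values that follow are relative to the median miRNA unless another scale is named, and relative to Y1 all 9 members stood above baseline on day 1. In whole tissue, fewer cells of a type and less RNA per cell cannot be told apart, and the fall of myofibre miRNAs moved with these days: 5 of 5 fell on day 1 (log2 changes between -4.85 and -2.51), and 4 of 5 were still lower on day 21. The part of that loss in the let-7 values was not tested.

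**Figure D1:**
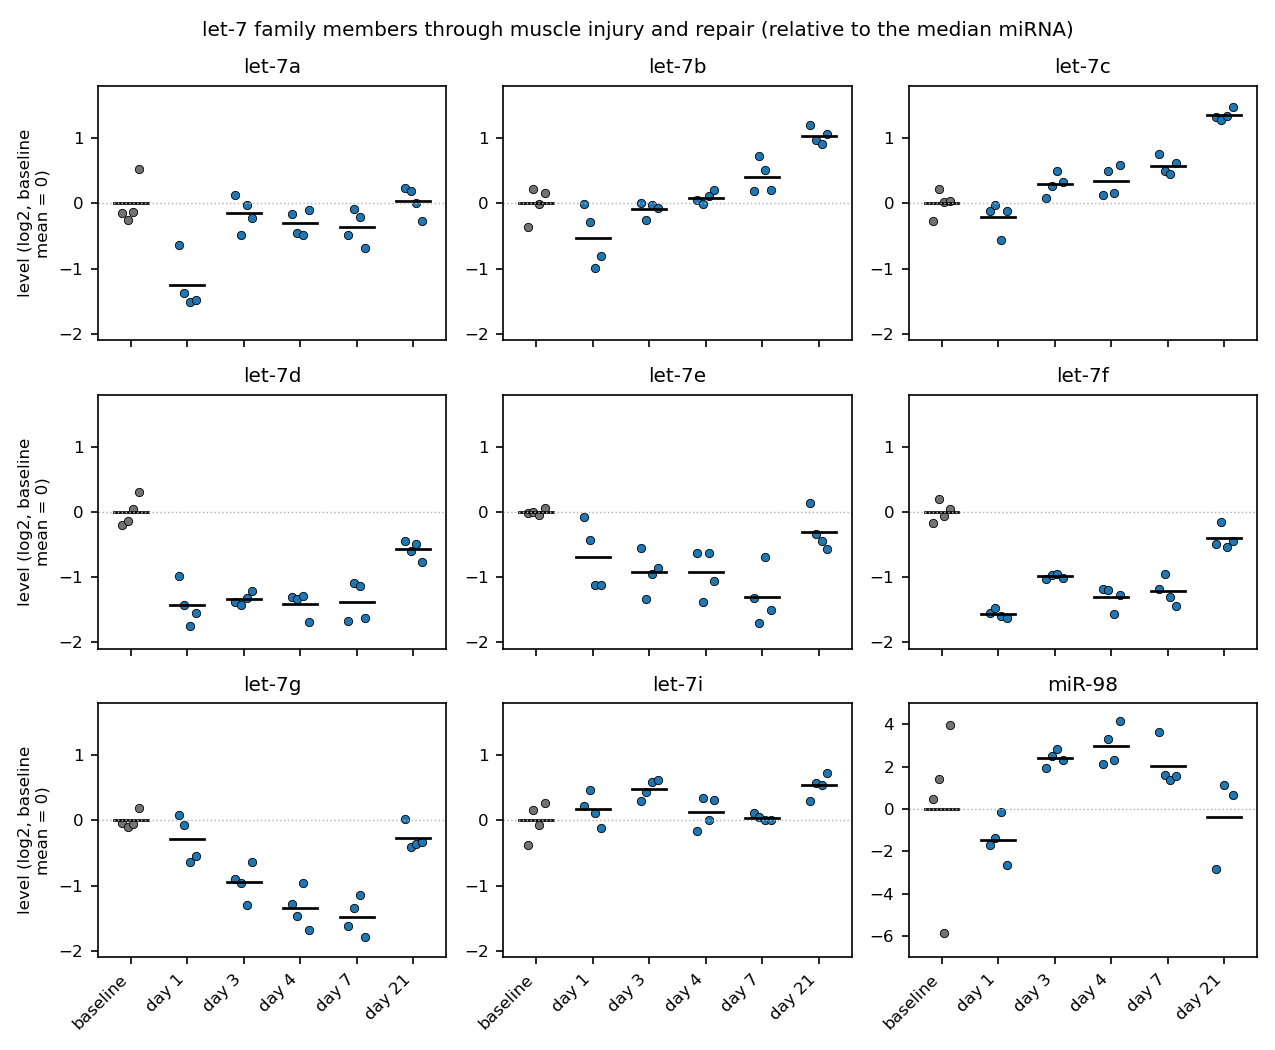
Levels of the 9 members by group, relative to the median miRNA (log2, baseline mean at 0); points are the 4 values (3 for miR-98 on day 21), bars their means, grey is baseline, and miR-98 has its own axis. let-7d lies below all baseline values on every day, let-7b and let-7c lie above all of them on day 21, and the baseline values of miR-98 span from -5.86 to 3.96.

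A cluster on chromosome 13 holds Mirlet7d, Mirlet7f-1 and Mirlet7a-1 on the minus strand (GRCm38.p6; hairpins at 48536012 to 48536114, 48537829 to 48537917 and 48538179 to 48538272). Relative to the median miRNA, let-7d and let-7f were the 2 members called lower on all 5 days, whereas relative to U6 neither was called on day 21 and relative to Y1 both were above baseline on days 1 and 21. In uninjected muscles the 4 levels of let-7d were -0.21, -0.14, 0.04 and 0.30, on day 1 they were -0.98, -1.42, -1.74 and -1.55, and on day 3 -1.38, -1.44, -1.32 and -1.21. On day 4 they were -1.31, -1.34, -1.28 and -1.70, those of day 7 -1.67, -1.10, -1.13 and -1.62, and those of day 21 -0.44, -0.61, -0.49 and -0.77. Every value after injury lay below every baseline value, and the injury days up to day 7 overlapped each other. The day 1 fall was 2.68-fold (log2 change -1.42 ± 0.17 SE, limma adjusted p = 9.12e-08), and the changes on days 3, 4 and 7 were -1.34, -1.41 and -1.38. On day 21 let-7d was 1.49-fold lower (-0.58 ± 0.17, adjusted p = 0.00402), a call lost relative to U6 (-0.70, adjusted p = 0.264) and turned relative to Y1 (0.50). It had risen by 0.80 ± 0.17 since day 7 (adjusted p = 2.15e-04).

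let-7f, made from the same cluster and from Mirlet7f-2 on the X chromosome (151912346 to 151912428, plus strand), had the smallest standard error of the family. At baseline the 4 levels of let-7f were -0.17, 0.20, -0.07 and 0.04, followed by -1.56, -1.48, -1.59 and -1.62 on day 1 and -1.02, -0.97, -0.96 and -1.01 on day 3. The day 4 values were -1.18, -1.20, -1.57 and -1.27, those of day 7 -1.18, -0.95, -1.30 and -1.44, and those of day 21 -0.49, -0.15, -0.54 and -0.45. Up to day 7 no value reached the baseline range, and on day 21 only the value of -0.15 did so. It fell 2.95-fold on day 1 (-1.56 ± 0.12, adjusted p = 1.12e-10), stood at -0.99 on day 3, -1.30 on day 4 and -1.22 on day 7, and was lower on day 21 (-0.41 ± 0.12, adjusted p = 0.00472), which was not called relative to U6 (-0.53, adjusted p = 0.359) and had the opposite sign relative to Y1 (0.67). let-7a, the third product of the cluster and also made beside Mir100 on chromosome 9 (Mirlet7a-2, 41536716 to 41536811, plus strand, within Mir100hg), behaved otherwise. Its levels were -0.64, -1.37, -1.52 and -1.49 on day 1, against -0.15, -0.25, -0.13 and 0.53 at baseline. The groups did not overlap, and the fall was 2.39-fold (-1.25 ± 0.21, adjusted p = 1.16e-05). By day 3 let-7a had risen again by 1.10 ± 0.21 (adjusted p = 7.28e-05), and from day 3 to day 21 its changes from baseline were -0.16, -0.30, -0.37 and 0.04, with adjusted p between 0.107 and 0.883.

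let-7c and let-7b come from neighbouring hairpins on chromosome 15, Mirlet7c-2 (85706603 to 85706697) and Mirlet7b (85707319 to 85707403), both on the plus strand within the RefSeq gene Lncppara, and let-7c also from Mirlet7c-1 on chromosome 16 (77599657 to 77599750, plus strand), 721 bases from Mir99a. The 4 levels of let-7c were -0.28, 0.22, 0.02 and 0.04 in uninjected muscles, -0.12, -0.03, -0.56 and -0.11 on day 1 and 0.08, 0.27, 0.50 and 0.33 on day 3. Levels on day 4 were 0.13, 0.49, 0.16 and 0.60, those of day 7 0.76, 0.50, 0.45 and 0.62, and those of day 21 1.32, 1.28, 1.34 and 1.47. Days 1, 3 and 4 overlapped the baseline range, and days 7 and 21 lay wholly above it. let-7c had not passed the test on day 1 (-0.21 ± 0.14, adjusted p = 0.179) or day 3 (0.29 ± 0.14, adjusted p = 0.0618), was higher on day 4 (0.34 ± 0.14, adjusted p = 0.0285) and day 7 (0.58 ± 0.14, adjusted p = 6.93e-04), and was 2.55-fold higher on day 21 (1.35 ± 0.14, adjusted p = 2.79e-08). The day 4 call was kept in 4 of 8 fits that each left out 1 value of either group. Relative to U6, let-7c was lower on day 1 (-2.12, adjusted p = 4.29e-05), below baseline on day 4 (-0.33, adjusted p = 0.477) and not called on day 7 (0.49), and relative to snoRNA135 it was below baseline on days 4 and 7.

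On the median-miRNA scale let-7b was lower than baseline on day 1 and higher on days 7 and 21. In uninjected muscles the 4 levels of let-7b were -0.36, 0.22, -0.02 and 0.16, on day 1 they were -0.02, -0.29, -0.998 and -0.81, and on day 3 0.00, -0.26, -0.03 and -0.08. On day 4 they were 0.05, -0.01, 0.11 and 0.20, those of day 7 0.19, 0.72, 0.51 and 0.20, and those of day 21 1.20, 0.97, 0.91 and 1.07. Day 1 and day 7 each overlapped baseline, and day 21 did not. It was 1.44-fold lower on day 1 (-0.53 ± 0.18, adjusted p = 0.0104), 1.32-fold higher on day 7 (0.41 ± 0.18, adjusted p = 0.0411) and 2.05-fold higher on day 21 (1.04 ± 0.18, adjusted p = 2.68e-05). With 1 value of either group left out, the day 1 call was kept in 7 of 8 fits and the day 7 call in 3 of 8. Relative to U6 neither day 7 (0.31, adjusted p = 0.61) nor day 21 (0.92, adjusted p = 0.146) was called. The signs turned relative to snoRNA135 on day 7 (-0.77) and day 21 (-0.10), and relative to Y1 on day 1 (2.21).

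let-7e lies on chromosome 17 (Mirlet7e, 17830352 to 17830444, plus strand), within Spaca6 and 460 bases from Mir125a. Its levels ranged from -0.06 to 0.07 at baseline, -1.12 to -0.09 on day 1, -1.34 to -0.55 on day 3, -1.38 to -0.63 on day 4, -1.70 to -0.69 on day 7 and -0.56 to 0.14 on day 21. Up to day 7 none of these ranges reached the narrow baseline range, and on day 21 they overlapped. The changes were -0.69 ± 0.25 on day 1 (adjusted p = 0.0154), -0.93 on day 3, -0.92 on day 4 and -1.31 ± 0.25 on day 7, 2.47-fold lower (adjusted p = 5.39e-05). On day 21 let-7e stood at -0.30 ± 0.25 (adjusted p = 0.282), after a rise of 1.00 since day 7. The day 1 call was kept in 6 of 8 fits that left out 1 value.

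let-7g, within Wdr82 on chromosome 9 (Mirlet7g, 106178840 to 106178927, plus strand), was not called on day 1 and was lower from day 3 to day 7 relative to the median miRNA, whereas relative to U6 it was lower already on day 1 (-2.20, adjusted p = 3.18e-04). At baseline the 4 levels of let-7g were -0.04, -0.10, -0.06 and 0.19, followed by 0.09, -0.07, -0.64 and -0.54 on day 1 and -0.90, -0.96, -1.30 and -0.63 on day 3. The day 4 values were -1.28, -1.47, -0.96 and -1.69, those of day 7 -1.62, -1.35, -1.14 and -1.79, and those of day 21 0.02, -0.41, -0.36 and -0.34. Day 1 overlapped baseline, days 3, 4 and 7 lay below it, and day 21 overlapped it again. The day 1 change did not pass (-0.29 ± 0.19, adjusted p = 0.159), whereas let-7g fell between day 1 and day 3 by 0.65 ± 0.19 (adjusted p = 0.00366), the 1 member of 9 to do so, and relative to U6 it did not fall over those days (0.13). It was 1.93-fold lower than baseline on day 3, 2.55-fold on day 4 and 2.78-fold on day 7 (-1.48 ± 0.19, adjusted p = 2.65e-07), and rose by 1.20 between day 7 and day 21 (adjusted p = 1.24e-05).

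let-7i stands alone on chromosome 10 (Mirlet7i, 122985640 to 122985724, minus strand), with no other RefSeq hairpin on its strand within 60 kb. The 4 levels of let-7i were -0.37, 0.17, -0.07 and 0.27 in uninjected muscles, 0.22, 0.46, 0.11 and -0.12 on day 1 and 0.30, 0.44, 0.60 and 0.62 on day 3. Levels on day 4 were -0.16, 0.34, 0.00 and 0.31, those of day 7 0.11, 0.06, 0.00 and 0.00, and those of day 21 0.29, 0.57, 0.55 and 0.74. The values of day 3 and day 21 lay just above the highest baseline value, and the other days overlapped baseline. let-7i was 1.4-fold higher on day 3 (0.49 ± 0.15, adjusted p = 0.00582) and 1.45-fold higher on day 21 (0.54 ± 0.15, adjusted p = 0.0036). Its changes on days 1, 4 and 7 were 0.17, 0.12 and 0.04 and did not pass. The day 3 sign turned relative to U6 (-0.64, adjusted p = 0.175) and snoRNA135 (-1.29). Day 21 was not called relative to U6 (0.42, adjusted p = 0.461) and was -0.60 relative to snoRNA135, and relative to U6 let-7i was lower on day 1 (-1.74, adjusted p = 4.80e-04).

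miR-98 (Mir98, X chromosome, 151913214 to 151913321, plus strand), 868 bases from Mirlet7f-2 and like it within Huwe1, was faint and scattered. Its Ct values were 30.20, 29.20, 36.18 and 26.23 at baseline, 31.88, 31.48, 29.93 and 32.78 on day 1 and 27.78, 27.44, 26.61 and 27.56 on day 3. They were 27.30, 26.24, 27.38 and 25.24 on day 4, 25.49, 27.74, 27.98 and 27.63 on day 7 and 40.00, 33.20, 29.17 and 29.69 on day 21, where 40 means no product by the last cycle and was left out of the fit. The 4 baseline values ran from 26.23 to 36.18 cycles, so every later group overlapped them, while all day 3 values were below all day 1 values in Ct. Relative to the median miRNA, miR-98 passed against baseline on day 4 alone (2.97 ± 1.35, adjusted p = 0.0466), a call kept in 3 of 8 fits that left out 1 value, with changes from 1.00 to 4.29. Without the wells over Ct 35, an alternative added after the values were seen, the day 4 change was 1.02 ± 0.89 (adjusted p = 0.291), and miR-98 was instead lower on day 1 (-3.40 ± 0.89, adjusted p = 0.00178) and day 21 (-2.31 ± 0.96, adjusted p = 0.037). Relative to U6, with all wells under 40, it was the day 1 fall that passed (-3.36 ± 1.04, adjusted p = 0.00459, kept in 7 of 8 fits) and the day 4 change that did not (2.30 ± 1.04, adjusted p = 0.0514). The step between day 1 and day 3 does not use baseline: miR-98 rose by 3.85 ± 1.35 (adjusted p = 0.0131), and the call was kept in 8 of 8 fits with 1 value left out, whereas relative to Y1 it did not pass (2.43 ± 1.20, adjusted p = 0.0636).

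Most miRNAs of these muscles moved, so the members called are counted here beside all miRNAs tested. Relative to the median miRNA, 5 members were lower and none higher on day 1 (of all miRNAs, 38.9% were called lower and 41.2% higher, with the family median at -0.69 and that of all miRNAs at -0.04). On day 3 there were 4 lower and 1 higher (41% and 38.7% of all), on day 4 there were 4 and 2 (41.3% and 43.2%), and on day 7 again 4 and 2 (42.3% and 40.4%). On day 21 there were 2 lower, let-7d and let-7f, and 3 higher, let-7b, let-7c and let-7i (37.6% and 35.7% of all). The 4 of 9 members lower on each of days 3, 4 and 7 were close to the share among all miRNAs. The family medians on days 3, 4, 7 and 21 were -0.16, -0.30, -0.37 and -0.27. Medians of all miRNAs, which this scale holds near 0, were -0.05 on day 3, 0.06 on day 4 and 0.065 on day 7.

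Between successive time points 5 members rose and 1 fell from day 1 to day 3 (let-7a, let-7b, let-7c, let-7f and miR-98 rose, let-7g fell; 31.5% and 48.4% of all miRNAs). From day 3 to day 4 let-7f fell by 0.31 and let-7i by 0.36, and none rose (28.2% fell and 25.9% rose among all). No member passed from day 4 to day 7 (25.8% of all fell and 24% rose), with changes of the 8 let-7 members between -0.38 and 0.32. From day 7 to day 21, 7 members rose and none fell (38.4% of all rose and 32.4% fell): all but let-7a (0.41 ± 0.21, adjusted p = 0.0885) and miR-98. The 5 rises from day 1 to day 3 were called relative to U6 as well, as were 66 of the 67 rises among all miRNAs. With 1 value left out, the let-7b rise was kept in 4 of 8 fits, and relative to U6 (limma adjusted p = 0.049) in 3 of 8. Relative to U6 those of let-7c and let-7f were kept in 7 and 6 of 8, and those of let-7a and miR-98 in 8 of 8. Relative to Y1 the rises of let-7a, let-7b, let-7c and let-7f had the opposite sign. Relative to U6 the changes of let-7g from day 1 to day 3 (0.13) and of let-7f and let-7i from day 3 to day 4 had the opposite sign. None of the 7 rises from day 7 to day 21 was called relative to U6, and as raw Ct 6 of them, all but that of let-7g, had the opposite sign. The largest of these rises were those of let-7g (1.20) and let-7e (1.00), and the smallest that of let-7i (0.49).

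Relative to U6, more members were lower on days 1 and 3. All 9 members were lower on day 1 and none was higher (65.9% of all miRNAs were lower and 9% higher), from -1.74 for let-7i to -3.47 for let-7f. On day 3, 6 were lower and none higher (52.8% and 19.3% of all), namely let-7a, let-7b, let-7d, let-7e, let-7f and let-7g. With 1 value left out, the day 3 calls of let-7a and let-7b were kept in 3 and 2 of 8 fits, and those of the other members in 8 of 8. On day 4 and on day 7 the 4 lower members were let-7d, let-7e, let-7f and let-7g, with none higher (43.2% and 25.4% of all on day 4, 36.2% and 31.5% on day 7). On day 21 only let-7c passed, higher by 1.23 ± 0.42 (adjusted p = 0.0199), and none was lower (22.1% of all higher and 19.2% lower). The falls of let-7d, let-7e, let-7f and let-7g on days 3, 4 and 7 and the day 21 rise of let-7c were thus called under both scalings. So were the day 1 falls of let-7a, let-7b, let-7d, let-7e and let-7f. The same held for all 82, 87 and 88 miRNAs called lower relative to the median miRNA on days 1, 3 and 4. The median of all miRNAs relative to U6 was -1.95, -1.17 and -0.61 on those days. On day 7 it held for 76 of 90 falls, and on day 21 for 47 of 76 rises. Falls called under both scalings are thus not particular to these members. Relative to U6, with 1 value left out, the day 7 falls of let-7d, let-7e, let-7f and let-7g were kept in 6, 4, 7 and 8 of 8 fits. The day 4 fall of let-7e was kept in 7 of 8, and the day 21 rise of let-7c in 5 of 8. The other falls of members called under both scalings were kept in 8 of 8 relative to U6. The rises of let-7i on day 3 (-0.64 relative to U6) and of let-7c on day 4 (-0.33) changed sign.

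The height of the whole family depended on the scaling. The median change of the 9 members on day 1 was -2.60 relative to U6, -2.04 relative to snoRNA135, -1.14 relative to U87, -0.69 relative to the median miRNA, -0.55 relative to snoRNA202, -0.31 as raw Ct and 2.05 relative to Y1. The median of all miRNAs moved alongside, to -1.95 relative to U6 and 2.69 relative to Y1. Relative to Y1 all 9 members were above baseline on day 1, and relative to snoRNA135 none of let-7b, let-7c and let-7i was called higher on any day. A rise or fall of a single member is therefore relative to the scale named beside it.

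**Figure D2:**
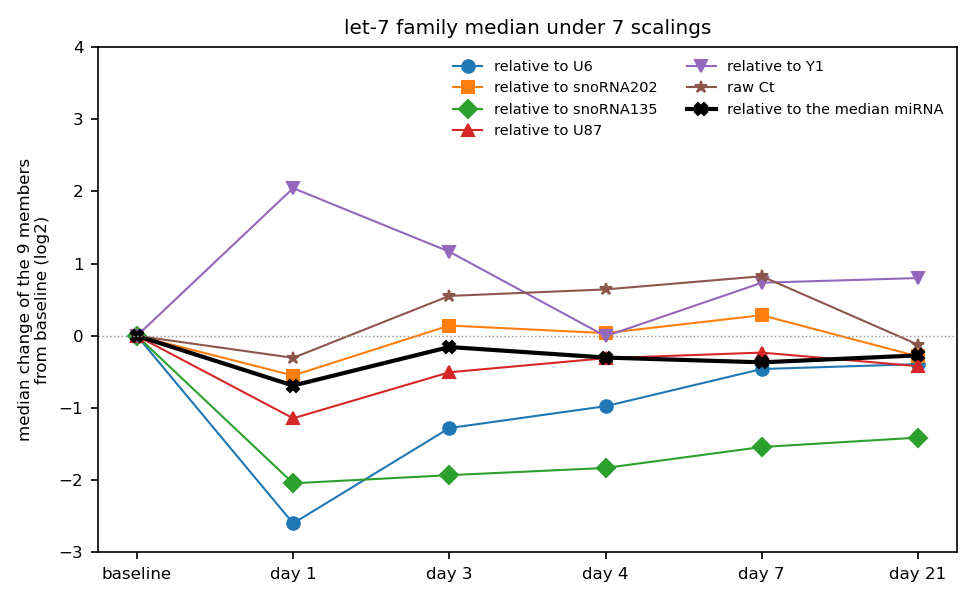
Median change of the 9 members from baseline (log2) by day under each of 7 scalings, as lines. On day 1 the family median lies between -2.60 relative to U6 and 2.05 relative to Y1, and by day 21 the lines lie between -1.41 relative to snoRNA135 and 0.80 relative to Y1.

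Differences between members do not depend on a control RNA, because what is common to a well cancels out where the values of different assays come from the same RNA. Each member was therefore also set against the mean of its own family in the same well. With all 9 members in that mean, 4 differed from it on day 1 (of all miRNAs, 70.1% differed), 6 on day 3 (75.9%), 6 on day 4 (81.2%), 6 on day 7 (79.3%) and 4 on day 21 (55.9%). The scatter of miR-98 enters that mean, so the mean of the 8 let-7 assays was added after the values were seen. Each let-7 assay is part of the mean it is set against, so the 8 changes cancel in sum on each day. That some members stand above it and others below is therefore fixed in advance, and a rise of 1 member lowers the others. It gave 6 members on day 1 (76.3% of all miRNAs), 7 on day 3 (81.1%), 7 on day 4 (84.5%), 7 on day 7 (83.6%) and 7 on day 21 (72.8%). The day 21 count thus stood at 4 with 9 members in the mean and at 7 with 8. These 2 fits also differ in their values: where miR-98 was at 40 the 9-member mean was not taken. Day 21 therefore had 3 values per assay in the 9-member fit and 4 in the other.

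Within the family, let-7d was below the mean of the 8 on all 5 days, with log2 changes between -0.88 and -0.70 (day 21 -0.75 ± 0.11, adjusted p = 7.10e-06). let-7f was also below it on all 5 days (-0.84 ± 0.14 on day 1 and -0.58 ± 0.14 on day 21, adjusted p = 1.24e-05 and 8.62e-04). let-7c was above it on all 5 days, from 0.52 ± 0.16 on day 1 to 1.18 ± 0.16 on day 21 (adjusted p = 0.00539 and 1.21e-06). let-7i was above it throughout as well, most on day 3 (0.95 ± 0.15, adjusted p = 9.27e-06) and least on day 21 (0.36 ± 0.15, adjusted p = 0.0407), a call kept in 3 of 8 fits with 1 value left out. These members kept their side of the family mean on every day.

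The remaining members crossed or left it. let-7b did not pass on day 1 (0.20 ± 0.11, adjusted p = 0.0983) and was above the mean from day 3, at 0.37, 0.68, 0.99 and 0.86 on days 3, 4, 7 and 21. let-7g was above it on day 1 (0.43 ± 0.14, adjusted p = 0.0103) and below it from day 3 to day 21, lowest on day 7 (-0.89 ± 0.14, adjusted p = 8.41e-06). let-7e was below it on day 3 (-0.47), day 7 (-0.72) and day 21 (-0.48), with the day 3 and day 21 calls each kept in 3 of 8 fits, and let-7a only on day 1 (-0.53 ± 0.15, adjusted p = 0.00318). miR-98 differed from it on day 4 alone (3.56 ± 1.35, adjusted p = 0.0192), with the baseline scatter given above. On day 21, when the mean of the 8 let-7 members relative to the median miRNA was 0.18 above baseline, let-7b, let-7c and let-7i were above that mean and let-7d, let-7e, let-7f and let-7g below it. Members on both sides are a consequence of the scale, since the 8 changes cancel in sum.

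**Figure D3:**
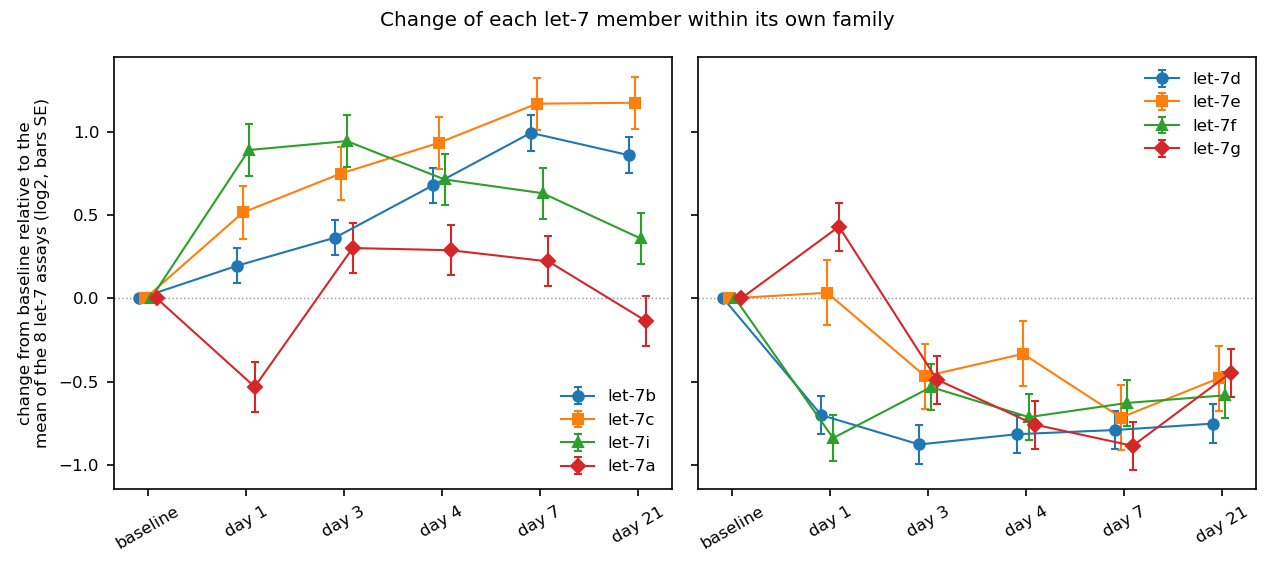
Change from baseline of each let-7 member relative to the mean of the 8 let-7 assays in the same well (log2, limma estimates, bars SE), by day. On day 21 let-7c and let-7b stand at 1.18 and 0.86, while let-7d, let-7f, let-7e and let-7g stand between -0.75 and -0.45.

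Raw Ct differences between pairs of members need no scaling. The pairs below were chosen after the values were seen and are given with no test. let-7d minus let-7c was -0.88 ± 0.26 cycles at baseline, 0.34 ± 0.26 on day 1, 0.75 ± 0.16 on day 3, 0.87 ± 0.40 on day 4, 1.08 ± 0.44 on day 7 and 1.05 ± 0.21 on day 21 (SD, n = 4 each). The baseline differences lay between -1.14 and -0.53 and the later ones between -0.02 and 1.55, so the let-7d assay, which crossed its threshold before let-7c in every baseline well, crossed it later on average from day 1 on. let-7g minus let-7i was 0.12 ± 0.25 at baseline, 0.58 ± 0.26 on day 1, 1.55 ± 0.32 on day 3, 1.59 ± 0.51 on day 4, 1.64 ± 0.30 on day 7 and 0.93 ± 0.36 on day 21. Among cluster mates, the group means of let-7c minus let-7b lay between -1.39 and -1.01, those of let-7f minus let-7d between 3.40 and 3.88, and those of let-7f minus let-7a between 0.74 and 1.74.

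Across the 6 group means, the closest pairs of let-7 members were let-7b with let-7c (Pearson r = 0.967), let-7d with let-7f (0.962) and let-7e with let-7g (0.913). The first 2 pairs have hairpins within 60 kb on the same strand, and let-7e and let-7g lie on different chromosomes. Among the 8 let-7 members, the 4 pairs that share a cluster had a median r of 0.861 (0.579 to 0.967). The 24 pairs that do not had 0.304 (-0.117 to 0.913). Pairs with miR-98, which was faint and scattered, are left out of these counts. let-7f and miR-98 also share a cluster and had r = -0.229. By mature sequence, the 4 pairs that are 1 base apart had a median r of 0.671. The 8 pairs 2 bases apart had 0.440, and the 16 pairs with 3 or more differences 0.297. These groupings overlap: of pairs 1 base apart, let-7b with let-7c and let-7a with let-7f (0.761) also share a cluster. let-7a with let-7c (0.581) and let-7a with let-7e do not. let-7d and let-7f differ at 3 bases and had like profiles, whereas let-7a and let-7e differ at 1 base and had r = 0.307. These are descriptions over 6 means that share wells and the median-miRNA scaling, and pairs share members.

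**Figure D4:**
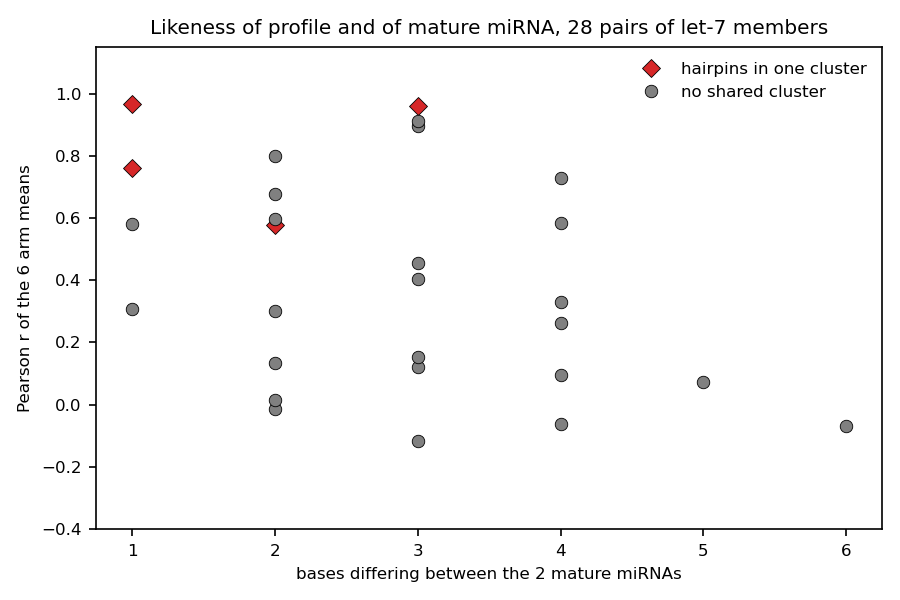
Pearson r between the 6 group means of 2 let-7 members (relative to the median miRNA) against the number of bases that differ between them, 28 pairs; red diamonds share a genomic cluster and grey circles do not. The clustered pairs drawn lie between 0.579 and 0.967, and the pairs drawn with no shared cluster between -0.117 and 0.913. Pairs with miR-98 are not drawn, among them let-7f with miR-98, which share a cluster (r = -0.229).

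LIN28 proteins are known to bind the loop of let-7 precursors, with the letters GGAG as a contact of the zinc knuckles. In RefSeq the letters GGAG follow the 5′ mature stretch in 9 of the 12 member hairpins, and are absent from Mirlet7c-2, Mirlet7b and Mir98. Anywhere in the hairpin, 44.5% of all 1005 RefSeq mouse hairpins hold them (1 strand, as transcribed). Of the other precursors reported to be uridylated with LIN28, all 3 were measured. On the median-miRNA scale miR-107 was lower on day 1 (-3.48 ± 0.60) and day 3, miR-143 was lower from day 3 to day 21 (-2.39 ± 0.17 on day 7), and miR-200c was higher on days 1, 3 and 4 (4.60 ± 0.19 on day 1) and lower on day 21. Relative to U6, 2 of the 3 were lower and 1 higher on each of days 1 and 3, and 1 was lower and none higher on each of days 4, 7 and 21.

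Of the miRNAs made next to let-7 genes, 5 of the 7 names listed were measured. Relative to the median miRNA 3 of the 5 were lower on each of days 1, 3, 4 and 7 and none was higher, and on day 21 only miR-100 was lower (-0.67 ± 0.27, adjusted p = 0.0342). miR-100, 5291 bases from Mirlet7a-2, was lower on all 5 days, with changes of -2.68 ± 0.27 on day 1 and -2.80 ± 0.27 on day 7. miR-99a, beside Mirlet7c-1, fell as well (-2.65 ± 0.20 on day 1 and -1.78 ± 0.20 on day 7). miR-125b-5p, which may come from Mir125b-1 at 45210 bases from Mirlet7a-2, was lower on days 1 to 7 (-1.53 ± 0.14 on day 1, -0.52 ± 0.14 on day 7). miR-125a-5p, beside Mirlet7e, and miR-99b were not called on any day on this scale, with changes between -0.63 and 0.56. Relative to U6 all 5 were lower on days 1 and 3, with day 1 changes of -2.23 for miR-125a-5p and -2.24 for miR-99b, while 3 were lower on day 4, 2 on day 7 and none on day 21.

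By Pearson r over the 6 group means, which share wells and scaling, the 5 miRNAs outside the family whose profiles were most like the mean of the 9 members were miR-28 (0.958), miR-125b-5p (0.896), miR-27b (0.871), miR-199a-3p (0.783) and miR-455 (0.771). Against the mean of the 8 let-7 members, where miR-98 does not weigh in, they were miR-27b (0.961), miR-99a (0.927), miR-100 (0.922), miR-125b-5p (0.899) and miR-497 (0.888). miR-125b-5p and miR-27b were in both lists. The mean of the 8 was -0.72 on day 1, -0.46 on day 3, -0.59 on day 4, -0.59 on day 7 and 0.18 on day 21 relative to the median miRNA. Of 2 other families common in differentiated tissue, on the same scale, all 5 measured miR-30 members were lower on every day (median change -3.40 on day 4), and of the 3 miR-29 members 2 were lower and 1 higher on day 3 and all 3 were lower on days 7 and 21. Relative to U6, 3 of the 5 miR-30 members were lower on day 21, and no miR-29 member was higher on day 3.

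Markers of other cells moved on the same days, and their part in the let-7 values was not tested. On the median-miRNA scale, of 8 tested miRNAs of the myeloid and lymphoid list, 6 were higher and none lower on day 1 (median change 1.76), and 3 were higher and 3 lower on day 21 (-0.13). Relative to U6, 3 of the 8 were higher and 2 lower on day 1 (median -0.15), and none was called on day 21. Both endothelial miRNAs, miR-126-3p and miR-126-5p, are arms of 1 hairpin and so not separate markers. They were lower from day 3 to day 21, with a median of -2.71 on day 4. Relative to U6 they were lower from day 1 to day 7 and not called on day 21. Of 6 fibroblast and smooth muscle miRNAs, 4 were higher and 2 lower on day 7 (3 and 2 relative to U6). Of 5 tested epithelial miRNAs, which include the miR-200 family, 4 were higher and 1 lower on day 1 (median 4.60, and 2.69 relative to U6 with the same counts).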

How the data were processed

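Mature miRNAs of tibialis anterior were measured by TaqMan RT-PCR over 40 cycles per the labels' protocols. The authors deposited raw Ct values in cycles, with no normalization, for 222 assays with 4 values in each of 6 groups; each of the 5 files repeats the baseline values, which entered once. The members and lists were chosen with earlier results of these data known. Depth has no counterpart here, and the 4 values per group limit the precision. A miRNA was tested where its Ct was under 35 in at least 3 of 4 wells of both groups, and wells at 40 were left out. Minus Ct was scaled to the median miRNA (205 miRNAs under Ct 35 in every well, 8 members among them), to U6, or to the family mean, which needs the nth value of each assay to come from the same RNA: deviations of the 28 let-7 pairs from their group means correlated with a median r of 0.583 (0.029 to 0.839, 24 values each). For miR-98 with each let-7 assay the median r was -0.015 (-0.239 to 0.414), so this check does not bear out a shared RNA for miR-98. A single limma 3.58.1 fit (lmFit, eBayes, R 4.3.3) over all 6 groups and all miRNAs gave changes, standard errors and two-sided p-values, called under 0.05 after Benjamini-Hochberg adjustment over every miRNA tested in that contrast. The fit was tested on simulated data in which a minority of miRNAs changed, on day 1 only, and the scatter was capped. In the real data most miRNAs moved and miR-98 scattered more widely. The simulation therefore does not test the scaling or the miR-98 calls under those conditions. Alternatives covered each control RNA, raw Ct, the median without the family, a Ct limit of 32, wells at 40 kept, limma-trend, 2-group fits, a 1.5-fold minimum and each value left out. All 9 members are named. The sources used here do not name the exact targets of the assays.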

Additional observations from a re-analysis of the deposited data

Results flagged for a closer look

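miR-98 had a Ct of 25.49 in 1 value of day 7, where the other 3 lay between 27.63 and 27.98. The gap was 0.859 of the group's range, past Dixon's critical value for 4 values. Of 54 groups examined 1 was marked in this way, and chance alone marks about 1 in 20.

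Relative to the median miRNA, let-7b moved in opposite directions at different times: it was higher than baseline on day 7 (log2 change 0.41) and lower on day 1 (-0.53), and the tested difference of day 7 minus day 1 was 0.93 (limma adjusted p = 5.31e-05). Day 21 minus day 1 differed by 1.56 (adjusted p = 4.96e-08), with 1.04 on day 21 and -0.53 on day 1. Relative to U6, let-7b was lower on day 1 (-2.44) and was not called on day 7 (0.31) or day 21 (0.92), and relative to snoRNA135 it was below baseline on both (-0.77 and -0.10).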

How the results depend on the processing

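The 8 let-7 members made 26 calls against baseline relative to the median miRNA, of which 22 were kept in all 8 fits that left out 1 value of either group. Relative to U6 it was 16 of 23, and relative to the mean of the 8 let-7 assays 30 of 33, the exceptions being let-7e on days 3 and 21 and let-7i on day 21 (each kept in 3 of 8). The shares of all miRNAs called on each scale are given above, and the calls kept are given for members only. With a value left out, members called lower on day 1 ranged from 3 to 6, higher on day 3 from 1 to 2, on day 4 from 0 to 2 and on day 7 from 1 to 2. Those lower from day 3 to day 4 ranged from 0 to 2, and those differing from the 9-member mean on day 21 from 2 to 6, with 7 against the 8-member mean. No paired analysis was possible because the labels number no replicates.

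The control RNA moved the counts most, and the cause was not tested. It moved those of all miRNAs too, which follow in brackets in the same order where they were counted. Against baseline, members called lower were on day 1 9 by U6, 9 by snoRNA135, 0 by Y1 and 3 by raw Ct (of 211 miRNAs, 139, 133, 2 and 58). On day 3 they were 8 by snoRNA135, 0 by Y1 and 1 by raw Ct (of 212 miRNAs, 150, 35 and 63). On day 4 they were 8 by snoRNA135 and 2 by raw Ct (of 213 miRNAs, 130 and 62). On day 7 they were 8 by snoRNA135 and 0 by Y1 and by raw Ct (of 213 miRNAs, 134, 38 and 43). On day 21 they were 0 by U6, 6 by snoRNA135, 1 by U87 and 0 by Y1 and by raw Ct (of 213 miRNAs, 41, 138, 78, 7 and 61). They were 0 on day 21 with a 1.5-fold minimum as well. Members called higher on day 1 were 8 by Y1 and 1 by raw Ct (of 211 miRNAs, 188 and 96). On day 3 they were 0 by U6, snoRNA135 and U87, 2 by snoRNA202, 5 by Y1 and 4 by raw Ct (of 212 miRNAs, 41, 35, 67, 93, 124 and 112). With the 1.5-fold minimum they were 0 on that day. On day 4 they were 0 by U6 and snoRNA135, 4 by snoRNA202, 5 by raw Ct and 1 by U87 and by Y1 (of 213 miRNAs, 54, 42, 106, 122, 86 and 92). They were 0 in a 2-group fit on that day. With the family left out of the median, with wells at 40 kept and with the 1.5-fold minimum it was 1. On day 7 they were 0 by U6 and snoRNA135, 5 by Y1 and by raw Ct, and 1 by U87 (of 213 miRNAs, 67, 53, 116, 123 and 80). They were 0 with the 1.5-fold minimum, and 1 with the family left out of the median and in a 2-group fit. On day 21 they were 1 by U6, 0 by snoRNA135 and 5 by Y1 (of 213 miRNAs, 47, 35 and 125).

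Between successive days, members lower on day 3 than on day 1 were 0 by U6, U87 and raw Ct and 7 by Y1 (of 213 miRNAs, 28, 80, 78 and 165). Higher ones were 2 by snoRNA135 and U87 and 0 by Y1 (of 213 miRNAs, 38, 57 and 13), and 2 with the 1.5-fold minimum. From day 3 to day 4 lower ones were 0 by U6, snoRNA202, snoRNA135, U87 and raw Ct and 8 by Y1 (of 216 miRNAs, 4, 51, 19, 8, 21 and 144). They were 0 in a 2-group fit and with the 1.5-fold minimum, and 1 with the family left out of the median. From day 4 to day 7 higher ones were 4 by snoRNA202 and Y1 and 2 by snoRNA135 and raw Ct (of 217 miRNAs, 82, 108, 77 and 68). From day 7 to day 21 lower ones were 3 by raw Ct (of 216 miRNAs, 143) and 1 with wells at 40 kept. Higher ones were 0 by U6 and raw Ct and 1 by snoRNA202 and U87 (of 216 miRNAs, 43, 15, 38 and 40).

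Called changes that reversed relative to Y1 were, on day 1, let-7a (1.48), let-7b (2.21), let-7d (1.31), let-7e (2.05) and let-7f (1.17). On day 3 they were let-7e (0.40), let-7f (0.33) and let-7g (0.38), on day 21 let-7d (0.50) and let-7f (0.67), and from day 1 to day 3 let-7a (-0.32), let-7b (-0.98), let-7c (-0.92) and let-7f (-0.84). Relative to snoRNA135 they were let-7i on day 3 (-1.29), let-7c on day 4 (-1.19), let-7b (-0.77) and let-7c (-0.59) on day 7, and let-7b (-0.10) and let-7i (-0.60) on day 21. Relative to U6 they were let-7i on day 3 (-0.64), let-7c on day 4 (-0.33), let-7g from day 1 to day 3 (0.13), and let-7f (0.14) and let-7i (0.085) from day 3 to day 4. Relative to U87, let-7f from day 3 to day 4 was 0.028. As raw Ct, let-7e on day 4 was 0.02, and from day 7 to day 21 let-7b (-0.41), let-7c (-0.27), let-7d (-0.24), let-7e (-0.043), let-7f (-0.23) and let-7i (-0.55) reversed. Relative to snoRNA202, let-7b (-0.035) and let-7i (-0.17) did so from day 7 to day 21.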
